A study of Mus musculus with 2 samples.

Results

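The identity genes of regulatory T cells are described here in T cells that had entered the pancreatic islets of NOD mice. All 8 genes asked for, Foxp3, Ikzf2, Ikzf4, Gpr83, Capg, Itgae, Lrrc32 and Itgb8, were found by their symbol among the 27998 genes of the deposited tables. They were followed in single CD4 T cells with and without a Foxp3 transcript, in CD8 T cells and in cells with an Ncr1 transcript, at both ages of the study. The cells came from female NOD/ShiLtJ mice, an inbred strain that develops autoimmune diabetes spontaneously. Cells bearing CD45.1, the form of the leukocyte surface protein CD45 in this strain, had been sorted from islets by flow cytometry at 7 weeks and at 12 weeks of age. Each age is 1 droplet library (10x Genomics Chromium, 3′ chemistry), the number of mice behind a library is not given in the labels, and neither age carries a transgene or treatment in the labels. With 1 library per age no difference can be tested against the spread between animals. The intervals below (95%, exact) cover counting error only, and they are too narrow where a few cells hold most of a gene's transcripts.

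Regulatory T cells restrain other lymphocytes, and their loss leads to autoimmunity in mice and people. The forkhead transcription factor Foxp3 defines the lineage, and the Ikaros family proteins Helios (Ikzf2) and Eos (Ikzf4) act with it in the nucleus. Latent TGF-beta is displayed on the cell surface by GARP (Lrrc32) and released by the integrin that contains the beta 8 chain (Itgb8). CD103, the alpha E integrin chain (Itgae), pairs with the beta 7 chain (Itgb7) and binds E-cadherin on epithelium. Gpr83 is a G protein-coupled receptor long used as a marker of these cells, and Capg caps the growing ends of actin filaments.

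Levels are counts of unique molecular identifiers (UMIs, 1 per captured transcript) summed over the cells of a class and given per 1000000 UMIs of the class (CPM). A T cell was a cell with at least 1 UMI of Cd3d, Cd3e or Cd3g and none of the B cell gene Cd79a. CD4 T cells also had a Cd4 UMI and none of Cd8a or Cd8b1, and CD8 T cells the reverse. A cell was called Foxp3+ from 1 Foxp3 UMI, so the Foxp3- class also holds cells whose Foxp3 transcript was not captured. The 7 week library gave 796 T cells, of which 338 were CD4 T cells, 45 of them Foxp3+. The 12 week library gave 1715 T cells, 757 CD4 T cells and 51 Foxp3+ cells. Median depth was 6890 and 6126 UMIs in Foxp3+ and 5606 and 4588 UMIs in Foxp3- CD4 T cells, at 7 and 12 weeks in that order, which is also the order of value pairs below. Of 10 T cell markers listed, 8 were found by symbol, and all 8 had UMIs in these T cell classes. The CD3 genes among them define the classes, and the other 5 had UMIs in B cells too, so presence alone does not set the classes apart. The summed marker level was 57.7 and 72.9 UMIs per 10000 in Foxp3+ CD4 T cells and 2.59 and 2.57 in B cells, which lack CD3 UMIs by rule. The Ncr1+ class, 86 and 61 cells, is not a class of natural killer cells alone, because 73 and 54 of its cells also had a CD3 UMI. Of its cells, 12 and 4 are CD4 T cells and 8 and 3 are CD8 T cells of the classes above. Another 50 and 47 are T cells with neither coreceptor (no UMI of Cd4, Cd8a or Cd8b1), a class of 227 and 354 cells.

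The 8 genes lie on 8 chromosomes (mouse build GRCm38, the mm10 sequence, GENCODE M21 gene models, all of them protein coding). Foxp3 (ENSMUSG00000039521) is at chrX:7573644-7595245 on the plus strand, and its exons overlap those of Ppp1r3f and Ccdc22 on the other strand and of the noncoding Flicr on the same strand. Ikzf2 (ENSMUSG00000025997) is at chr1:69531214-69687245 on the minus strand, Ikzf4 (ENSMUSG00000002578) at chr10:128630843-128645991 on the minus strand, and an unnamed RNA gene on the other strand overlaps exons of each. Gpr83 (ENSMUSG00000031932) is at chr9:14860210-14870789 on the plus strand and Capg (ENSMUSG00000056737) at chr6:72544391-72562983 on the plus strand. Itgae (ENSMUSG00000005947) is at chr11:73090583-73147446 on the plus strand, with Haspin inside it on the other strand. Lrrc32 (ENSMUSG00000090958) is at chr7:98489283-98502181 on the plus strand and Itgb8 (ENSMUSG00000025321) at chr12:119158022-119238802 on the minus strand. Whether reads were assigned by strand is not given in the sources used here, so transcripts of Foxp3, Ikzf2 and Ikzf4 may include some of their overlapping partners.

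Upstream sequence was listed by RefSeq (GRCm38.p6) for 4 of the genes, Foxp3, Gpr83, Capg and Itgb8, and is shown for the lineage factor and for Gpr83, whose upstream window lies outside every annotated exon. The windows of both Foxp3 starts lie within exons of Flicr. Letters are 5′ to 3′ on the gene's strand, and capitals mark matches to a searched motif. Untranslated exon sequence was left out, which shortens the window of the first Foxp3 start.
Foxp3, first start, chrX:7579426-7579566: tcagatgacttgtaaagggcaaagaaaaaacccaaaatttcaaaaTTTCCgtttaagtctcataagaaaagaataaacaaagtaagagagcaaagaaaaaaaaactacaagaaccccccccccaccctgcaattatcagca
Foxp3, second start, chrX:7580233-7580482: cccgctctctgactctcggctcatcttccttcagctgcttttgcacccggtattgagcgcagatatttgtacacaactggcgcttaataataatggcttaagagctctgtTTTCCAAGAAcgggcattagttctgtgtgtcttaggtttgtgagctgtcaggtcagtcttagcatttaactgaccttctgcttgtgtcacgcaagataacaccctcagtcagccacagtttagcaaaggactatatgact
Gpr83, chr9:14859960-14860209: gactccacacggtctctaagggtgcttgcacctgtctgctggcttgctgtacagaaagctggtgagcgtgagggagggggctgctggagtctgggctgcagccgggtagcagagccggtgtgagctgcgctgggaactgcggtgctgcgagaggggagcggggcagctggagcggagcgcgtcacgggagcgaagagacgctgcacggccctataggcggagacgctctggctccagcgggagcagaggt
The motifs searched, on both strands of the 250 bases before each start, were a forkhead motif (TGTTTAC), a RUNX motif (TGTGGT), an NFAT core (GGAAA), a STAT motif (TTCNNNGAA) and a TATA box (TATAAA). The first Foxp3 window held the NFAT core, on the other strand, 205 bases before the start and a TATA box, inside the stretch left out, 32 bases before it. In the second, the NFAT core on the other strand and the STAT motif overlapped in 1 run of capitals. Of 32851 listed mouse windows of this length, 55.6% held the NFAT core, 7.02% the STAT motif, 12.4% the TATA box, 14.0% the RUNX motif and 3.17% the forkhead motif. None of the 5 motifs was found in the windows of Gpr83, Capg and Itgb8.

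Among CD4 T cells, the Foxp3+ share was 13.3% (9.88 to 17.4) in the 7 week library and 6.74% (5.06 to 8.76) in the 12 week library. The difference was -6.58 percentage points (-10.9 to -2.79). Thinning every cell to 3000 UMIs before the classes were made gave 7.55% and 4.02%, a difference of -3.53 points (-7.55 to -0.38). In T cells with neither coreceptor the unthinned share was 7.49% and 6.21%, a difference of -1.27 points (-5.94 to 2.81), an interval that included 0. In T cells with both it was 19.6% and 7.14%, a difference of -12.5 points (-25.2 to -2.33). B cells, which should lack the gene, had a Foxp3 UMI in 0.862% and 0.593% of cells at median depths of 4970.5 and 4661.5 UMIs. CD8 T cells had one in 2.29% and 1.46%, and 2 of 86 and 0 of 61 Ncr1+ cells did. The exact interval of the latter share of cells with a UMI reached 5.87%.

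Foxp3+ cells carried few Foxp3 transcripts each. By the rule every one had at least 1 UMI, 15 and 19 cells had exactly 1, and the most in any cell was 7. Summed over the class, Foxp3 reached 248 CPM at 7 weeks and 398 CPM at 12 weeks. These levels follow from how the class was made. Of all Foxp3 UMIs in the kept cells, 55.7% and 54.8% were in Foxp3+ CD4 T cells.

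All 7 other genes were at least 2-fold higher in Foxp3+ than in Foxp3- CD4 T cells in both libraries. Of all genes with enough UMIs, 7.44% at 7 weeks and 6.69% at 12 weeks were that much higher (581 of 7812 and 594 of 8884 genes). Enough meant at least 20 UMIs over both classes, which 5 and 6 of the 7 genes had. Lrrc32 did not reach it at either age and Gpr83 did not at 7 weeks. The median log2 ratio of those 5 and 6 genes was 2.24 and 2.39, against 0.09 and 0.08 over all genes with enough. With Lrrc32 and Gpr83 counted at both ages, and Lrrc32 at its bound at 7 weeks, it was 2.88 and 2.72. With 1 library per age this was not tested, and the genes are known markers of the lineage.

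**Figure D1:**
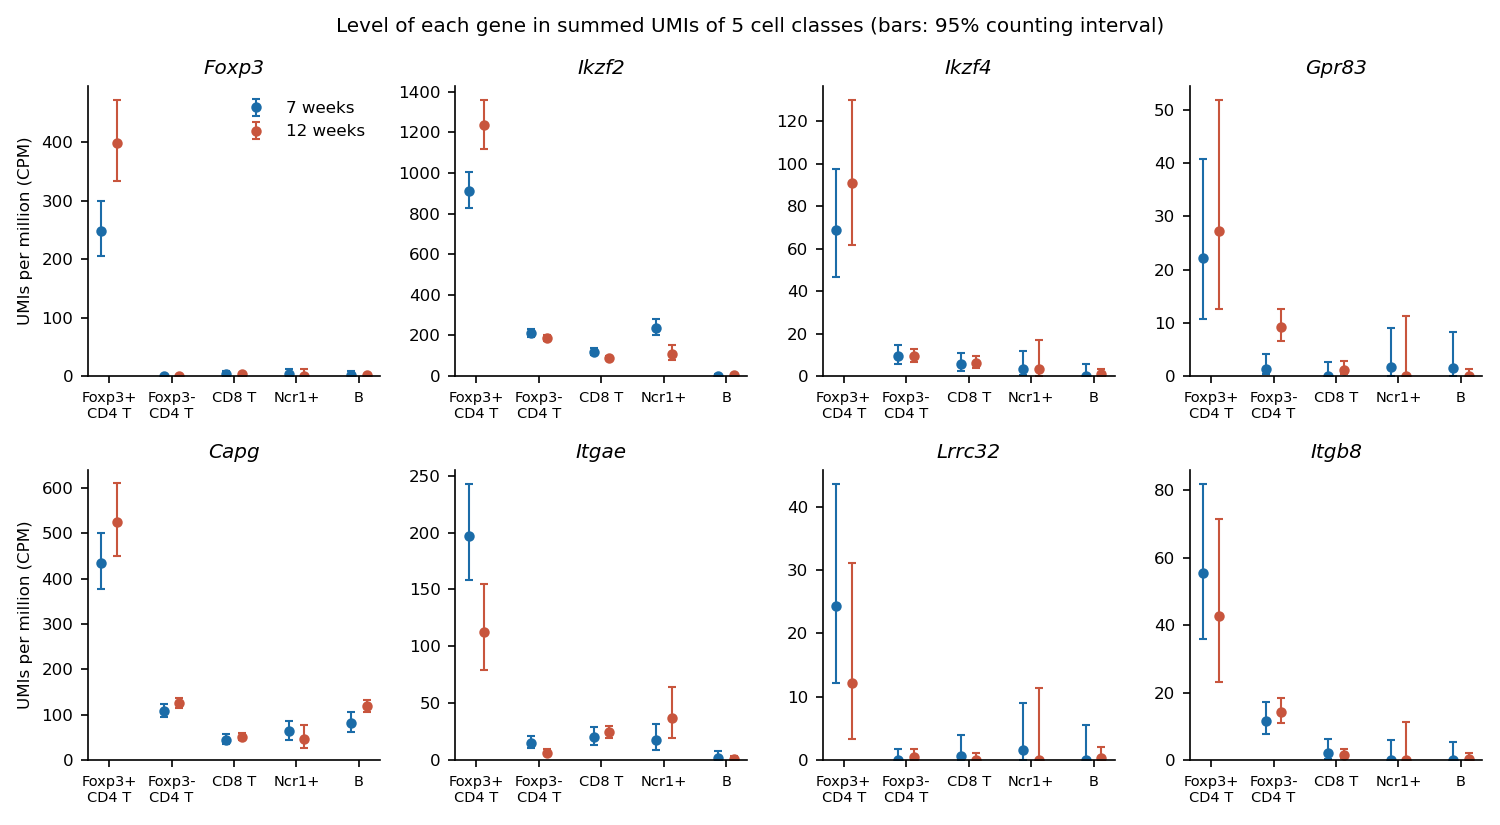
Level of each gene (vertical axis, CPM, linear from 0) in 5 cell classes (horizontal axis) at 7 weeks (blue) and 12 weeks (red), 1 library each. Points are summed UMIs of the class and bars the 95% Poisson interval. Foxp3+ CD4 T cells are highest for all 8 genes at both ages, and Ikzf2 and Capg have clear levels in other classes too.

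Among the nuclear factors, Ikzf2 was nearly universal in Foxp3+ cells. It had UMIs in 45 of 45 and 50 of 51 Foxp3+ CD4 T cells, and its level was 912 CPM (826 to 1004) at 7 weeks and 1234 CPM (1117 to 1360) at 12 weeks. Foxp3- CD4 T cells had 210 and 188 CPM, with a UMI in 144 of 293 and 230 of 706 cells. The ratio was 4.35 (3.79 to 4.98) and 6.58 (5.82 to 7.43). Its transcripts were also found outside the CD4 T cells: CD8 T cells had 120 and 88.6 CPM and Ncr1+ cells 238 and 111 CPM, while B cells had 1.48 and 5.33 CPM. The order of the classes at 7 weeks was Foxp3+ CD4, then Ncr1+ and Foxp3- CD4 with overlapping intervals, then CD8, then B. At 12 weeks Foxp3- CD4 T cells came next after Foxp3+ cells, followed by Ncr1+ and CD8 T cells with overlapping intervals. In the 13 and 7 Ncr1+ cells without a CD3 UMI, Ikzf2 was at 59.7 CPM at both ages. With so few cells these levels rest on few UMIs and are not read as unchanged between the ages.

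Ikzf4 was sparser. Foxp3+ cells had 68.8 CPM (46.7 to 97.6) and 91.2 CPM (61.5 to 130), with a UMI in 19 of 45 and 20 of 51 cells. The Foxp3- class stood at 9.37 and 9.20 CPM, so the ratio was 7.34 (4.05 to 13.6) and 9.91 (5.93 to 16.4). With at least 2 Foxp3 UMIs required, the 12 week ratio was 5.39, and without cycling cells (a UMI of Mki67 or Top2a) the 7 week ratio was 11.3. CD8 T cells, at 5.57 and 6.17 CPM, overlapped the Foxp3- class in their intervals, and Ncr1+ cells had 2 and 1 UMIs in all. Of the other Ikaros family genes, Ikzf3, a factor of activated lymphocytes, had ratios of 1.76 and 1.72, Ikzf1, the founding member, 0.75 and 0.57, and Ikzf5, from 4 UMIs in Foxp3+ cells at each age, 0.46 and 0.59. Counting all 5 family genes, 2 were at least 2-fold higher at each age, and these were Ikzf2 and Ikzf4 themselves. Over all genes with enough UMIs the share was 7.44% and 6.69%.

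The surface pair of TGF-beta activation was rare even in Foxp3+ cells. Lrrc32 had 11 UMIs in 7 of 45 Foxp3+ cells at 7 weeks (24.4 CPM) and 4 UMIs in 4 of 51 cells at 12 weeks (12.2 CPM). In Foxp3- CD4 T cells it had 0 UMIs in 293 cells and 2 in 706 cells. In the 7 week library it was at least 17.4-fold higher in Foxp3+ cells, with the 0 set to a floor of 3 UMIs over the class, and at 12 weeks the ratio was 25.1 with a wide interval (3.60 to 278). With at least 2 CD3 UMIs required, which kept 51 Foxp3+ and 691 Foxp3- cells, the 12 week ratio was 48.2. CD8 T cells had 1 and 0 UMIs and Ncr1+ cells 1 and 0. All 22 Lrrc32 UMIs of the 7 week library were in T cells, but 45.5% of the 22 at 12 weeks were.

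Itgb8 had 25 and 14 UMIs in Foxp3+ cells, 55.5 CPM (35.9 to 81.9) and 42.5 CPM (23.3 to 71.4). Foxp3- CD4 T cells had 11.7 and 14.3 CPM, a ratio of 4.74 (2.61 to 8.60) and 2.98 (1.54 to 5.40). CD8 T cells had 2.09 and 1.40 CPM and Ncr1+ cells 0 UMIs in both libraries. Thinning cells before the classes were made gave a 12 week ratio of 1.26. Its partner chain Itgav was 1.99-fold (1.13 to 3.37) and 3.01-fold (1.66 to 5.16) higher in Foxp3+ cells, and Tgfb1, the ligand, 1.43-fold and 1.75-fold higher. Of 14 measured genes of TGF-beta activation and response, 0 and 3 were at least 2-fold higher in Foxp3+ cells and 0 at either age 2-fold lower, with median log2 ratios of 0.20 and 0.61. Of all genes with enough UMIs, 7.44% and 6.69% were that much higher and 6.62% and 9.64% that much lower. Besides Itgav, the 2 listed genes past 2-fold at 12 weeks were the receptor gene Tgfbr1 (2.06) and the signal transducer Smad3 (2.60, from 6 UMIs in Foxp3+ cells).

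Itgae separated the CD4 classes by the widest margin of the genes with enough UMIs. Foxp3+ cells had 197 CPM (159 to 243) and 112 CPM (79.2 to 155), Foxp3- cells 15.0 and 6.53 CPM, and the ratio was 13.2 (8.71 to 20.4) and 17.2 (10.2 to 29.4). With cells thinned before the classes were made it was 26.5 and 51.2. Itgae was also uneven, since 5 cells held 52.8% and 70.3% of the UMIs and 1 cell of the 7 week library had 27. CD8 T cells, in which CD103 marks tissue-resident cells, had 20.2 and 24.4 CPM with a UMI in 19 of 175 and 54 of 478 cells. Its beta chain partner Itgb7 was 1.88-fold (1.59 to 2.21) and 1.80-fold (1.53 to 2.12) higher in Foxp3+ than in Foxp3- CD4 T cells. Across 11 measured integrin genes, 2 and 3 were at least 2-fold higher: Itgae and Itgb8 at both ages and Itgav at 12 weeks. Over all genes with enough UMIs the share was 7.44% and 6.69%. Itgb1, the shared beta 1 chain, was lower in Foxp3+ cells, with ratios of 0.27 (0.20 to 0.36) and 0.70 (0.54 to 0.89).

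Gpr83 was sparse in Foxp3+ cells, with 10 and 9 UMIs, 22.2 and 27.3 CPM. Foxp3- CD4 T cells had 3 UMIs at 7 weeks and 38 at 12 weeks, in 23 of 706 cells, so the ratio was 15.8 (4.07 to 89.3) and 2.97 (1.26 to 6.26). Without cycling cells the ratio was 27.2 at 7 weeks and 1.54 at 12 weeks, and with cells thinned before the classes were made it was 28.6 and 1.09. CD8 T cells had 0 and 4 UMIs.

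Capg was found in most Foxp3+ cells. Foxp3+ cells had 435 CPM (376 to 500) and 526 CPM (450 to 610), with a UMI in 42 of 45 and 46 of 51 cells. Foxp3- CD4 T cells had 108 and 126 CPM, giving ratios of 4.02 (3.31 to 4.88) and 4.18 (3.50 to 4.97). B cells, at 81.5 and 118 CPM, exceeded CD8 T cells at 44.5 and 51.3 CPM. Macrophages express Capg. Here macrophages had at least 3 UMIs of C1qa, C1qb and C1qc and none of CD3 or Cd79a. The 19 such cells at 12 weeks had Capg at 38.2 CPM (16.5 to 75.3), below Foxp3- CD4 T cells, and 2 cells at 7 weeks had 2 UMIs. Macrophage markers were uneven between the CD4 classes: their summed level was 10.2 and 0.58 UMIs per 10000 in Foxp3+ and 2.68 and 15.3 in Foxp3- CD4 T cells. All 6 of those markers had UMIs in Foxp3+ cells at 7 weeks, and Csf1r and Adgre1 were at 0 there at 12 weeks. At 7 weeks 1 Foxp3+ cell held 93.7% of these marker UMIs, with 3 Capg UMIs of its own. Leaving out every CD4 T cell with 3 or more UMIs of C1qa, C1qb, C1qc and Lyz2 gave Capg ratios of 4.28 and 4.10. Of 8 and 9 measured capping and severing genes, 2 at each age were at least 2-fold higher, against 7.44% and 6.69% of all genes with enough UMIs. Besides Capg, the listed genes that much higher were Gsn (2.47) at 7 weeks, which was 0.31 at 12 weeks, and Scin (4.02, from 8 UMIs) at 12 weeks.

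**Figure D2:**
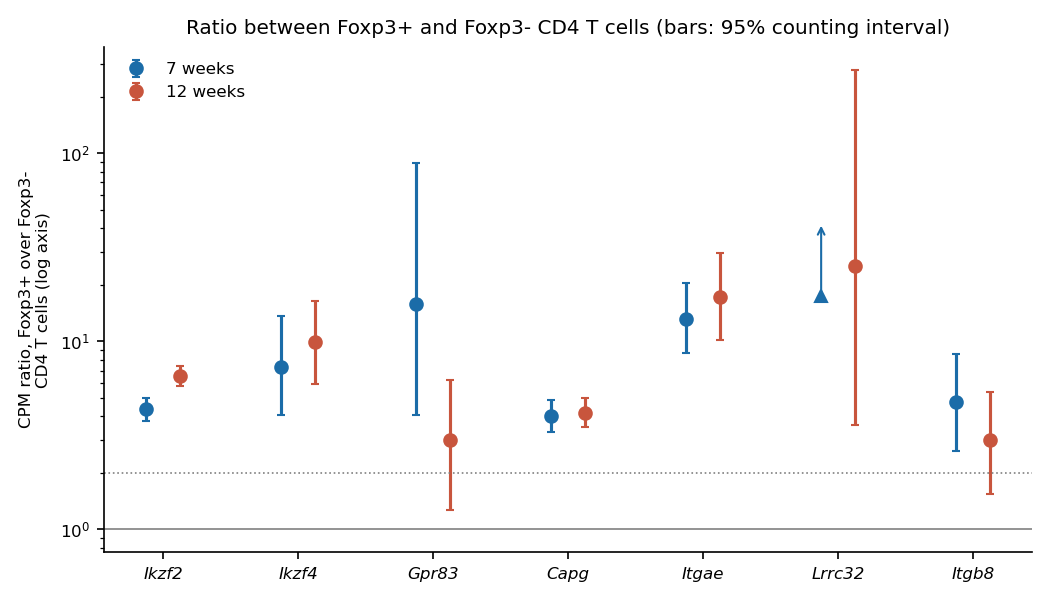
Ratio of CPM in Foxp3+ over Foxp3- CD4 T cells (vertical, log axis) for the 7 genes other than Foxp3 at 7 weeks (blue) and 12 weeks (red). Circles are ratios, bars the exact 95% counting interval, the triangle with an arrow the lower bound for Lrrc32 at 7 weeks, and the dotted line 2-fold. All points lie above 2, and the intervals of Gpr83 and Itgb8 at 12 weeks reach below it.

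Most Foxp3+ cells held UMIs of 2 or more of the other genes. After thinning to 3000 UMIs, at least 2 of the 7 other genes had a UMI in 75.0% (59.7 to 86.8) of 44 and 76.5% (62.5 to 87.2) of 51 Foxp3+ cells. The share was 15.2% of 282 and 12.3% of 706 Foxp3- CD4 T cells, 6.67% and 4.60% of CD8 T cells, 7.14% and 3.28% of Ncr1+ cells and 0% (upper bound 3.27%) and 0.395% of B cells. In 0 of 44 and 0 of 51 Foxp3+ cells were all 7 missing (upper bounds 8.04% and 6.98%). Ikzf2 and Capg were found together in 42 of 45 and 45 of 51 Foxp3+ cells at full depth. That follows from their separate counts, 45 and 42 of 45 cells and 50 and 46 of 51 cells. After thinning, Ikzf2 alone was in 86.4% and 96.1% of Foxp3+ cells and Capg in 70.5% and 68.6%. Whether genes shared cells more often than their separate shares would give was not tested. Gpr83 and Itgb8, each found in 8 to 11 cells of a library, shared 0 of 45 and 1 of 51 cells. With so few cells holding either gene, the small overlap was not tested and is not read as avoidance.

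**Figure D3:**
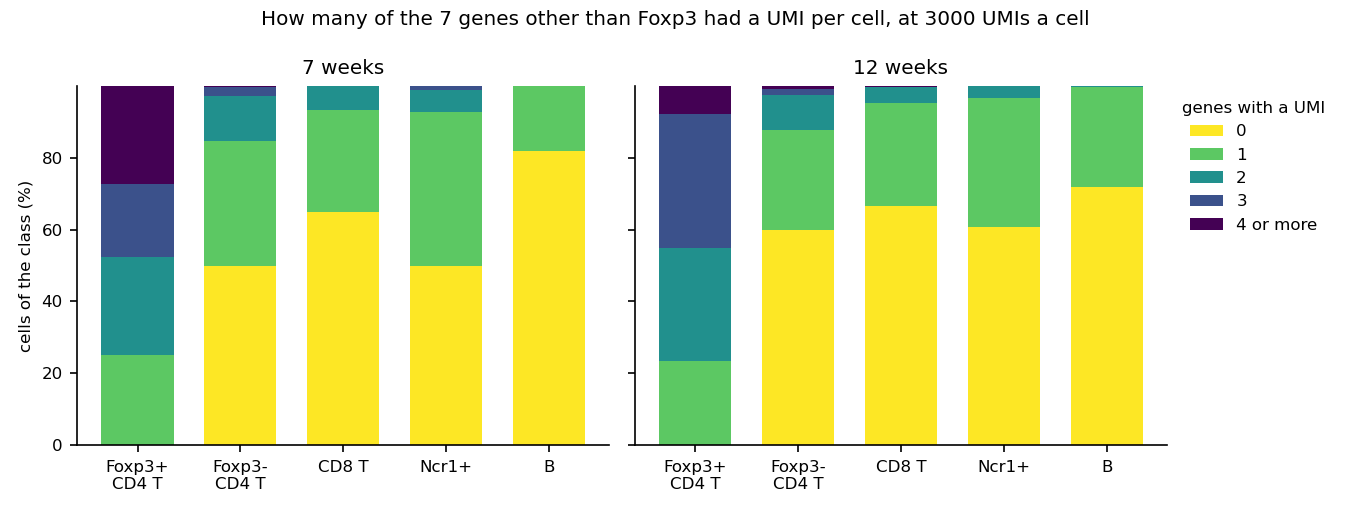
Share of cells (vertical, percent, stacked from 0 to 100) by how many of the 7 genes other than Foxp3 had a UMI (colour), in 5 cell classes (horizontal) after thinning to 3000 UMIs a cell, at 7 weeks (left) and 12 weeks (right). The bars of Foxp3+ CD4 T cells have no cell at 0 genes, while 141 of 282 and 422 of 706 Foxp3- CD4 T cells are there.

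Read the other way, the share of thinned CD4 T cells that were Foxp3+ was higher the more of the other 7 genes they held. It was 0% (upper bound 2.58%), 10.1%, 25.5% and 72.4% in cells with 0, 1, 2 and 3 or more of them at 7 weeks. At 12 weeks it was 0% (upper bound 0.870%), 5.74%, 18.6% and 57.5%. Among single genes, a UMI of Itgae went with the highest share of those seen in at least 10 cells of each library, 61.5% of 26 and 57.9% of 19 cells. A UMI of Gpr83 went with Foxp3 in 6 of 6 cells at 7 weeks and in 4 of 21 at 12 weeks. A UMI of Itgb8 did so in 9 of 19 and 5 of 30 cells.

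Some cells without a Foxp3 UMI carried several of the genes. In the thinned Foxp3- class, 43 and 87 cells had 2 or more of the 7. Ctla4, an inhibitory receptor, was at 216 and 464 CPM in them against 60.2 and 51.0 CPM in Foxp3- cells with none of the 7, and 668 and 471 CPM in Foxp3+ cells. Tnfrsf18, which encodes GITR, was at 419 and 464 CPM against 113 and 172 CPM. Il7r, the IL-7 receptor chain that is low on regulatory T cells, was at 16.3 and 32.4 CPM against 102 and 230 CPM. Il21, a helper T cell cytokine, was at 77.3 and 57.6 CPM in them, while Foxp3+ cells had 1 and 0 UMIs. Whether these are cells whose Foxp3 was missed was not tested.

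At 7 weeks, Foxp3+ cells with 2 or more Foxp3 UMIs had Ikzf2, Ikzf4, Gpr83, Capg, Itgae and Itgb8 at 0.88 to 0.99 times the level of cells with exactly 1, and each of those intervals included 1. Lrrc32 had a ratio of 3.84 (0.55 to 167). At 12 weeks Capg was 1.83-fold (1.26 to 2.73) and Itgae 3.09-fold (1.19 to 10.1, from 32 against 5 UMIs) higher in cells with 2 or more, while Ikzf4 had a ratio of 0.28 (0.12 to 0.62) and Ikzf2 of 0.77 (0.63 to 0.95). Cells with 2 or more were deeper, with medians of 9903.5 against 6189 UMIs at 7 weeks and 6286.5 against 4743 UMIs at 12 weeks. The part of depth in these ratios was not tested. Cells with exactly 1 Foxp3 UMI, just inside the threshold, had Ikzf2 at 967 and 1457 CPM, above the 210 and 188 CPM of cells just outside it.

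Foxp3 transcripts were not limited to cells with a Cd4 UMI. Of 77 and 89 Foxp3+ T cells, 58.4% and 57.3% were CD4 T cells, 22.1% and 24.7% had neither coreceptor, 14.3% and 10.1% had both and 5.19% and 7.87% were CD8 T cells. Against Foxp3- T cells with neither coreceptor, Foxp3+ T cells with neither had Ikzf2 5.07-fold (4.01 to 6.38) and 8.56-fold (6.85 to 10.7) higher, Ikzf4 10.1-fold (3.57 to 26.8) and 12.5-fold (4.37 to 34.1), and Capg 3.88-fold (2.21 to 6.50) and 4.62-fold (3.10 to 6.72). Gpr83 had ratios of 18.1 (4.61 to 75.2) and 9.55 (2.51 to 31.7), from 6 and 5 UMIs in the Foxp3+ cells. Itgae was 10.7-fold (5.24 to 21.3) higher at 12 weeks, and its 7 week ratio of 2.42 (0.61 to 7.01) had an interval that included 1. Itgb8 had a ratio of 11.5 (3.36 to 36.1) at 12 weeks but 1 UMI in each class at 7 weeks. Lrrc32 had 1 against 3 and 0 against 2 UMIs, too few for a ratio. Of all T cells with neither coreceptor, 50 of 227 and 47 of 354 were also Ncr1+ cells. The median depth of the Foxp3+ cells with neither was 3903 and 4651.5 UMIs, and 112 of 338 and 271 of 757 CD4 T cells had a single Cd4 UMI, so Cd4 was itself often near the limit of capture. Cells with both coreceptors were deep, at 16294 and 12423 UMIs, and doublets among them were not told apart.

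Between the ages, the ratio of Ikzf2 lay above 1 in Foxp3+ CD4 T cells and below 1 in the other T cell classes. In Foxp3+ CD4 T cells it was 1.35-fold (1.18 to 1.56) higher in the 12 week library. In Foxp3- CD4 T cells the ratio was 0.89 (0.79 to 1.01), in CD8 T cells 0.74 (0.61 to 0.89), in T cells with neither coreceptor 0.62 (0.54 to 0.72) and in Ncr1+ cells 0.47 (0.31 to 0.67). The interval in Foxp3- CD4 T cells included 1. T cells with neither coreceptor and Ncr1+ cells are not separate classes, since 50 and 47 cells are in both. Cycling cells were 16 of 45 Foxp3+ cells at 7 weeks and 8 of 51 at 12 weeks, and without them the ratio was 1.11 in Foxp3+ CD4 T cells and 0.49 in CD8 T cells. In Ncr1+ cells 5 cells held 40.1% of the Ikzf2 UMIs at 7 weeks. These are 2 libraries, and the difference between classes was not tested.

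Itgae was lower in the 12 week library in both CD4 classes, while its interval in CD8 T cells included 1. Foxp3+ CD4 T cells had a ratio of 0.57 (0.38 to 0.84), with a UMI in 24 of 45 and 12 of 51 cells (36.4% and 21.6% after thinning), and Foxp3- CD4 T cells 0.44 (0.25 to 0.75), or 0.27 as a mean over cells. In CD8 T cells the ratio was 1.21 (0.79 to 1.91). Without cycling cells the Foxp3+ ratio was 0.28. Counted against all genes, 0 of 6 members with enough UMIs were at least 2-fold lower at 12 weeks in Foxp3+ CD4 T cells, where 7.68% of genes were, 1 of 6, Itgae, in Foxp3- CD4 T cells, where 3.72% of genes were, and 0 of 4 in CD8 T cells, where 3.25% of genes were.

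Capg had a ratio of 1.21 (0.98 to 1.49) in Foxp3+ CD4 T cells, which was 0.75 without cycling cells and 0.97 as a mean over cells. Ikzf4 (1.33), Gpr83 (1.23), Itgb8 (0.77) and Lrrc32 (0.50, from 4 and 11 UMIs, and 0.23 without cycling cells) had intervals that included 1 in that class. Gpr83 without cycling cells stood at 0.41. Gpr83 in Foxp3- CD4 T cells was 6.55-fold (2.08 to 33.1) higher at 12 weeks, from 3 and 38 UMIs. Foxp3 within Foxp3+ cells, 1.60-fold higher, depends on the rule that made the class.

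**Figure D4:**
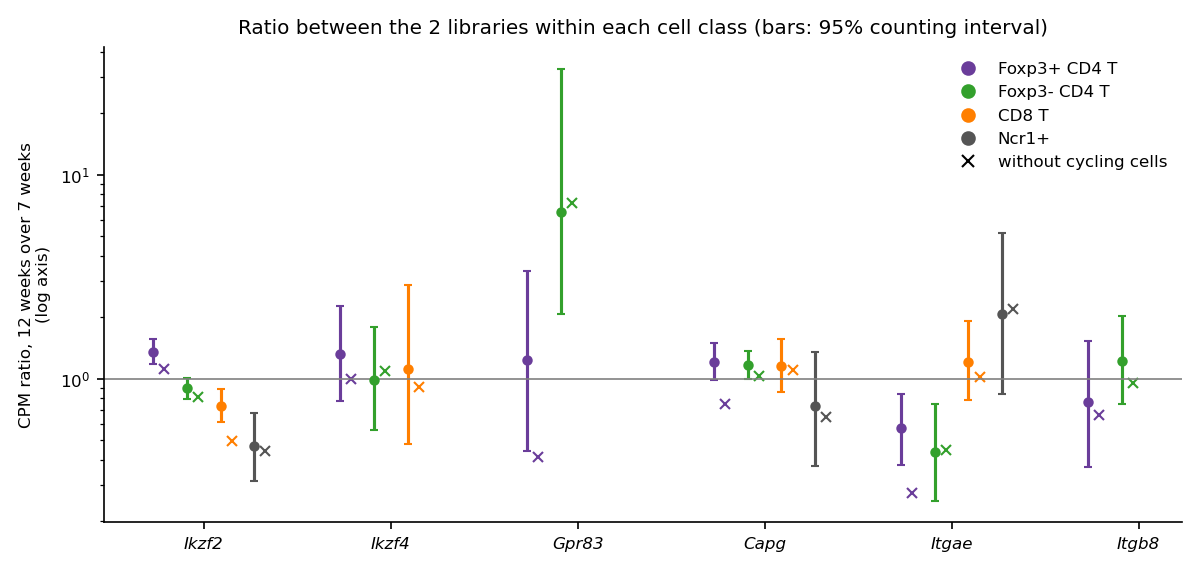
Ratio of CPM at 12 weeks over 7 weeks (vertical, log axis) for 6 of the genes in 4 cell classes (colours), shown where both libraries had UMIs and their sum reached 10. Circles are ratios with exact 95% counting intervals and crosses the ratio without cycling cells. For Ikzf2 the Foxp3+ CD4 T cell point lies above 1 and those of the other 3 classes below it, and the cross for Capg in Foxp3+ cells falls below 1.

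Foxp3+ CD4 T cells were also divided by whether they held an Itgae UMI. At 7 weeks the 24 cells with an Itgae UMI had Il10, an anti-inflammatory cytokine, at 555 CPM against 94.0 CPM in the 21 without, a ratio of 5.90 (3.64 to 10.1). Ctla4 was 2.30-fold (1.77 to 3.02) and Il2ra, the high-affinity IL-2 receptor chain CD25, 2.78-fold (1.16 to 7.65) higher in them. Ikzf2, with a ratio of 0.78 (0.64 to 0.96), and the partner chain Itgb7, with 0.72 (0.54 to 0.96), were lower. At 12 weeks, with 12 cells against 39, Capg was 2.43-fold (1.77 to 3.31), Il10 2.72-fold (1.15 to 6.33) and Itgb7 1.57-fold (1.12 to 2.18) higher, and Ikzf2 (0.81), Ctla4 (1.26) and Il2ra (1.19) had intervals that included 1. Ccr7, a lymph node homing receptor, had 0 UMIs in the 12 Itgae+ cells and 32 in the others, a ratio of at most 0.30 with the 0 set to a floor of 3 UMIs. Median depth was 9421 against 6189 UMIs at 7 weeks and 6180 against 6094 UMIs at 12 weeks, and the part of depth in these differences was not tested. The 7 week Foxp3+ cell that held 93.7% of the macrophage marker UMIs had 3 Itgae UMIs, so it is among the 24. Its part in the Il10 ratio and the other 7 week ratios was not tested.

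The 64 and 110 CD8 T cells with an Ikzf2 UMI had Xcl1, a chemokine that draws cross-presenting dendritic cells, 4.14-fold (3.58 to 4.80) and 3.39-fold (3.13 to 3.69) higher than CD8 T cells without it. Pdcd1, which encodes the inhibitory receptor PD-1, was 1.67-fold (1.32 to 2.11) and 2.44-fold (2.08 to 2.87) higher, and Lef1 had ratios of 0.45 and 0.35. The 19 and 54 CD8 T cells with an Itgae UMI were set against those without. At 12 weeks Ccl5 had a ratio of 0.53 (0.51 to 0.56), Gzmk of 0.22 (0.13 to 0.36) and Klre1 of 0.18 (0.087 to 0.34), and Dapl1 was 1.95-fold (1.60 to 2.36) higher. At 7 weeks the ratios were 0.90 for Ccl5, 0.58 for Gzmk, 0.61 for Klre1 and 0.52 for Dapl1. CD8 T cells with an Ikzf2 UMI were deeper on average than those without at both ages. Those with an Itgae UMI were deeper on average at 7 weeks and had nearly the same mean depth at 12 weeks. The part of depth in these differences was not tested.

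Of 18 measured genes of regulatory surface and suppressive function, 13 and 12 were at least 2-fold higher in Foxp3+ than in Foxp3- CD4 T cells and 0 were 2-fold lower, with median log2 ratios of 1.89 and 1.34. Over all genes with enough UMIs, 7.44% and 6.69% were that much higher. The OX40 gene Tnfrsf4 was at 1074 and 1483 CPM in Foxp3+ cells (ratios of 4.69 and 4.45), the 4-1BB gene Tnfrsf9 at 224 and 222 CPM (4.93 and 7.11), and Il2ra had ratios of 6.99 and 6.01. Il10 had a ratio of 11.4 (8.52 to 15.5) at 7 weeks and 1.94 (1.23 to 2.95) at 12 weeks. The part of cells with macrophage markers in these Il10 values was not tested. The ectoenzyme gene Nt5e, which encodes CD73, had ratios of 0.62 and 1.49.

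Of 18 and 19 measured genes typical of conventional T cells, 10 and 13 were at least 2-fold lower in Foxp3+ cells, with median log2 ratios of -1.26 and -1.93. Of all genes with enough UMIs, 6.62% at 7 weeks and 9.64% at 12 weeks were that much lower. Cd40lg, the B cell help ligand, had 3 UMIs in Foxp3+ cells at each age and ratios of 0.071 (0.015 to 0.21) and 0.13 (0.026 to 0.38). Ifng, the cytokine interferon gamma, had ratios of 0.14 and 0.16. Igfbp4 had 7 and 1 UMIs and ratios of 0.14 and 0.015 (0.00039 to 0.086). Dapl1 had 0 UMIs in Foxp3+ cells of either age against 142 and 508 in Foxp3- cells, ratios of at most 0.10 and 0.074. Il2, which regulatory T cells take up and are known to make little of, had 12 and 9 UMIs in Foxp3+ cells and ratios of 1.24 and 1.01. The chemokine gene Ccl5 was at 1.71 (1.52 to 1.91) and 0.20 (0.16 to 0.26). Of 10 naive CD4 T cell genes, 7 and 5 were at least 2-fold lower, among them Tcf7 (0.17 and 0.35).

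**Figure D5:**
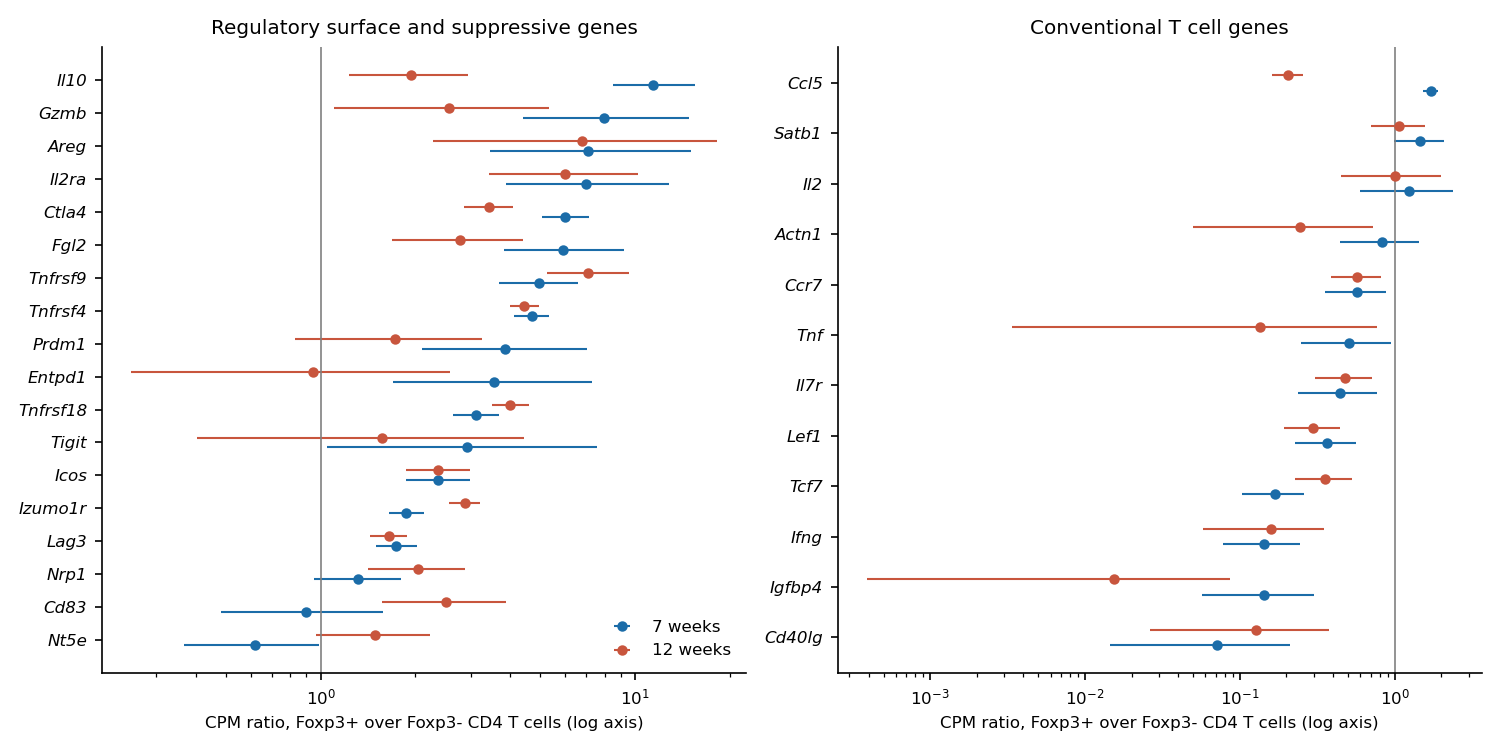
Ratio of CPM in Foxp3+ over Foxp3- CD4 T cells (horizontal, log axis) for regulatory surface genes (left) and conventional T cell genes (right) with at least 20 UMIs at each age and UMIs in Foxp3+ cells of both libraries, with 1 conventional gene not shown. Points are ratios at 7 weeks (blue) and 12 weeks (red) with exact 95% counting intervals. Il10 and Ccl5 are the genes whose intervals at the 2 ages lie farthest apart.

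Among 31 measured partners and regulators of Foxp3, 2 and 4 were at least 2-fold higher and 2 were 2-fold lower at each age, with median log2 ratios of 0.30 and 0.23. These counts are near the shares over all genes, of which 7.44% and 6.69% were 2-fold higher and 6.62% and 9.64% 2-fold lower. The nuclear receptor genes Nr4a1 (2.27 at both ages) and Nr4a3 (2.37 and 6.28) were the 2 higher at 7 weeks, and Batf (2.57) and Tet2 (2.37) joined them at 12 weeks. Runx1 had ratios of 1.29 and 1.90 and Cbfb, its binding partner, of 1.31 and 1.12. Foxp1 was lower, at 0.42 (0.28 to 0.60) and 0.63 (0.43 to 0.90), and with Bach2 made up the 2 lower genes at 7 weeks. Those at 12 weeks were Uhrf1 and Kat5. In the IL-2 receptor and STAT5 list of 15 genes, Il2ra at both ages and Il2rb (2.16) at 12 weeks were 2-fold higher, and the survival gene Bcl2 was lower at 0.38 (0.21 to 0.65) and 0.49 (0.30 to 0.77).

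The genes most like the members were ranked among 4896 other genes by the smaller lower bound of the Foxp3+ over Foxp3- ratio in the 2 libraries. In order they were Tnfrsf4, Tnfrsf9, Il2ra, Arl5a, Ccr2, Ctla4, Serpina3g, Tnfrsf1b, Tnfrsf18, Mxd1, Cmtm7 and Ifngr1. Arl5a, a small GTPase of vesicle traffic, had ratios of 10.0 and 5.15, and Ccr2, a chemokine receptor, 4.18 and 4.95. The ranking took genes with at least 50 UMIs over both classes in each library, which Lrrc32 and Gpr83 did not have. With the other 5 members added, Itgae was 1, Ikzf4 2, Ikzf2 4, Capg 7 and Itgb8 55 of 4901. In the opposite direction the first 8 were Dapl1, Il21, Igfbp4, Tnfsf8, Ifng, Xcl1, Cd40lg and Themis. Tnfsf8, the CD30 ligand, had 2 and 20 UMIs in Foxp3+ cells and ratios of 0.018 (0.0022 to 0.067) and 0.19 (0.12 to 0.30).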

How the data were processed

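Whole-number UMI counts per gene and barcode, not normalized, were deposited by the authors for 1 library per age. Cell Ranger 1.3.1 and build mm10 are named per the submitters' processing notes, and the annotation is not given in the sources used here. Of 1113 and 2812 barcodes (8701184 and 19288252 UMIs), those with at least 200 genes and at most 10% mitochondrial UMIs were kept. The barcodes most like simulated doublets were then removed up to a loading rate of 0.8% per 1000 barcodes (10 and 63), leaving 1099 and 2741 cells. The libraries shared 2 barcode sequences, none of them in Foxp3+ CD4 T cells. Classes were set by UMIs of single cells, without clustering.

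UMIs were summed by class. Levels carry exact Poisson, shares exact binomial (Clopper-Pearson), ratios exact conditional binomial and share differences Newcombe intervals, all at 95% and for counting error only. A 0 was set to a floor of 3 UMIs over the class for bounds. Shares were also taken after thinning cells to 3000 UMIs, which left out 52 and 0 shallower cells, 1 of them Foxp3+. No p-values were computed. The interval code was tested on simulated data. Python 3.11.15, numpy 2.4.6, scipy 1.17.1, pandas 2.3.3 and scikit-learn 1.9.0 were used.

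The genes and gene lists were chosen with earlier results of these data known. From each of 9 lists, genes with the most UMIs or largest ratios are named. The genes most like the members needed 50 UMIs over both CD4 classes in each library, and the first 12 higher and 8 lower are named. Genes within Itgae and Ikzf2 subsets were chosen after values were seen. Alternatives covered doublets, cycling cells, CD3 and Foxp3 minimums, mitochondrial limit, thinning, the cell mean, the leading cell and macrophage-marked cells. An alternative on naive-like cells is not reported here.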

Additional observations from a re-analysis of the deposited data

Results flagged for a closer look

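Ikzf2 was singled out because its difference between the ages ran in opposite directions in different cell classes. Its ratio of CPM at 12 weeks over 7 weeks was 1.35 in Foxp3+ CD4 T cells, 0.736 in CD8 T cells and 0.465 in Ncr1+ cells. With 1 library per age the difference between classes was not tested. The Foxp3+ value was 1.11 without cells holding a UMI of Mki67 or Top2a and 1.18 as a mean over cells, and the CD8 value was 0.49 and 0.69 in the same order. In the 13 and 7 Ncr1+ cells without a CD3 UMI, Ikzf2 was at 59.7 CPM at both ages. These levels rest on few UMIs and are not read as an equal level.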

How the results depend on the processing

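The share of Foxp3+ cells among CD4 T cells depended on how Foxp3+ was defined. It was 7.55% at 7 weeks and 4.02% at 12 weeks when every cell was first thinned to 3000 UMIs, and 8.88% and 4.23% when at least 2 Foxp3 UMIs were required. It stayed lower at 12 weeks in all alternatives run. The count of genes at least 2-fold higher in Foxp3+ CD4 T cells was 4 of 6 at 12 weeks after thinning first, when Gpr83 (1.09) and Itgb8 (1.26) fell short. In the other alternatives it was 6 or 7. Of 125 alternative values of the 14 Foxp3+ over Foxp3- ratios, 115 stayed within the interval of the value reported, 10 left it and 0 changed direction, and 6 of the 10 came from thinning first. Of 147 alternative values of the 25 ratios between the ages, 139 stayed within and 8 left it, 6 of them without cycling cells. Leaving out CD4 T cells with macrophage transcripts, an alternative chosen after seeing the data, moved 0 of 14 and 0 of 25 ratios out of their intervals. Of 16 levels in Ncr1+ cells, 9 left their interval when only the cells without a CD3 UMI were used. A second random thinning moved 2 of 64 shares, and a minimum of 10 UMIs moved 1 of 18 list medians. Lrrc32 and Gpr83 had 4 to 11 UMIs in the Foxp3+ cells of a library, which limits their ratios. No paired analysis was possible because each age has 1 library and the labels give no replicate numbers.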
